A study of Mus musculus with 9 samples.

Results

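The glycolysis and pentose phosphate genes described here are 33 genes of glucose metabolism, taken as the rows of the deposited expression table whose gene name is on a list of these pathways. They are 33 of the 55487 genes listed. The list holds 2 glucose carriers, 16 glycolytic enzymes, 2 enzymes of fructose 2,6-bisphosphate turnover, 5 genes that set the fate of pyruvate and lactate, 7 genes of the pentose phosphate pathway and the transcription factor gene Hif1a. Each had at least 1 TPM (transcripts per 1000000 transcripts) in at least 3 libraries, the filter that left 15536 genes for testing. The name Aldoa stands on 1 further row (ENSMUSG00000114515), which stayed under 1 TPM in every library and was not tested.

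The cells were CD4+ T cells taken from the spleens of female wild-type (Trail-r+/+) C57BL/6 mice, 6 to 7 weeks old, with a negative selection kit, which leaves the wanted cells unlabelled. There were 3 groups of 3 libraries. The medium group was kept in culture medium only, for a time that the labels do not give. The stimulated group was cultured with stimulatory Abs, 3 µg/ml of the one against CD3 and 2 µg/ml of the one against CD28, which engage the T cell receptor complex and its costimulatory receptor, for 24 h, and the TRAIL group received the same Abs for the same time together with recombinant TRAIL, a ligand of death receptor TRAIL-R, at 10 µg/ml. Nothing in the labels ties the 3 libraries of a group to separate mice, so p-values measure the spread between these libraries, which may be technical.

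Glycolysis converts glucose to pyruvate in a chain of cytosolic enzymes and yields ATP, and the pentose phosphate pathway branches from it at glucose 6-phosphate to make NADPH and the ribose of nucleotides. Resting T cells use little glucose. On activation through the T cell receptor and CD28 they are known to take up more of it and to export much of the carbon as lactate, with Hif1a and Myc among the transcription factors that act on genes of the pathway.

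The label of the cells was checked on markers of cell types. The 11 T cell markers, Cd3e and Cd4 among them, averaged at least 1 TPM in each group and summed to 5172 to 5229 TPM in medium, 4133 to 4623 TPM after stimulation and 5223 to 5538 TPM with TRAIL. Markers of other cells were present as well and moved with the groups. The 8 B cell markers summed to 2130 to 2210, 169 to 189 and 888 to 994 TPM in medium, stimulated and TRAIL libraries, and the 11 macrophage and monocyte markers to 1647 to 1786, 41.8 to 48.3 and 1357 to 1527 TPM. The 8 neutrophil markers summed to 867 to 1136, 32.99 to 49.9 and 498 to 599 TPM, the 7 erythroid markers to 2137 to 2585, 24.8 to 39.6 and 619 to 669 TPM, and the 7 CD8 and NK markers to 288 to 331, 163 to 179 and 116 to 126 TPM. In the stimulated libraries 2 of the macrophage, 3 of the neutrophil and 3 of the erythroid markers averaged under 1 TPM. In these bulk libraries fewer cells of a type and less RNA per cell cannot be told apart, and the part of the other cells in the results was not tested.

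The promoters of 6 members are shown first, because these genes carry the main patterns of the data. Tpi1, Slc16a3 and Hk2 had the largest rises after stimulation, Slc2a1 and Slc16a1 were, with Slc16a3, the members called higher with TRAIL than in medium, and Pfkfb4 was the member called lower after stimulation. The windows run from 250 bases before to 50 bases after the RefSeq start on GRCm38.p6, 5′ to 3′ on the gene's strand. Capitals mark ACGTG or GCGTG on either strand (CACGT and CACGC on the strand shown), the letters of the core that HIF-1 is known to bind. ACGTG is also part of the E-box CACGTG.
Slc2a1 (chr4:119108495-119108794, + strand): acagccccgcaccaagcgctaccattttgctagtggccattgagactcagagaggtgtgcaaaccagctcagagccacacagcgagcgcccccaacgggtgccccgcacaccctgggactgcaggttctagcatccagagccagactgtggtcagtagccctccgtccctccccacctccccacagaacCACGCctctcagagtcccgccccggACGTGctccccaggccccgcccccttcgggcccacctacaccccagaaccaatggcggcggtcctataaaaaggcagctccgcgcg
Hk2 (chr6:82774405-82774704, - strand): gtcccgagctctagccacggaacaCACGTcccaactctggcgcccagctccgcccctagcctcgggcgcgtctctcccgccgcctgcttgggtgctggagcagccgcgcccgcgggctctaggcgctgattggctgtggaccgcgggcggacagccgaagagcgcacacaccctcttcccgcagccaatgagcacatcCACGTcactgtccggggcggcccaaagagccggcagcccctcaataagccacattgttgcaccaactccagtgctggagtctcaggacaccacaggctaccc
Tpi1 (chr6:124814109-124814408, - strand): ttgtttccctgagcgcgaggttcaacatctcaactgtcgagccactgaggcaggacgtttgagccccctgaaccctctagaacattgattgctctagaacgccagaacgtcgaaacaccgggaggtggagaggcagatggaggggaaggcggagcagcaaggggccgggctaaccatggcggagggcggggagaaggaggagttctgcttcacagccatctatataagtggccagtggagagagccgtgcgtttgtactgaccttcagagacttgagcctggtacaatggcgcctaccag
Pfkfb4 (chr9:108991652-108991951, + strand): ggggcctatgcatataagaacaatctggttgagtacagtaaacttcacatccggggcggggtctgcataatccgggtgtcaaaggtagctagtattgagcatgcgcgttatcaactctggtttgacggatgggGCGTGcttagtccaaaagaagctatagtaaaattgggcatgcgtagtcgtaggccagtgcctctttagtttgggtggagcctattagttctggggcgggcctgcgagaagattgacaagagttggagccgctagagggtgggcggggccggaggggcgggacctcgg
Slc16a1 (chr3:104638414-104638713, + strand): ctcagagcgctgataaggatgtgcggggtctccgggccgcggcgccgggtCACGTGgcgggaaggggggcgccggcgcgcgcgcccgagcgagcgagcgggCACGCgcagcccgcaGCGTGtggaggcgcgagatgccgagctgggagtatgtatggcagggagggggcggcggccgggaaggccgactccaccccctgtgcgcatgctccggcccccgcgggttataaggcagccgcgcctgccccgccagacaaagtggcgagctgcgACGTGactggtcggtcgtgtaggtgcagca
Slc16a3 (chr11:120948817-120949116, + strand): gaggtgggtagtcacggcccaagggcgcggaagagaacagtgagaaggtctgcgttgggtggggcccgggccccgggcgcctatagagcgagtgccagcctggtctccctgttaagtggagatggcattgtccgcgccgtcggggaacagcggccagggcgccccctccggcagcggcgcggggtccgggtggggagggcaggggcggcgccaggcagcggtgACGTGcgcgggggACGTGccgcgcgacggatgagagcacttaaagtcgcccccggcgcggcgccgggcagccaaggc

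The window of Slc16a1 held 5 matches to ACGTG or GCGTG, those of Slc2a1, Hk2 and Slc16a3 held 2 each, that of Pfkfb4 held 1 and that of Tpi1 held 0, counted on both strands. The CACGTG in the Slc16a1 window counts as 2 of its 5, since it reads ACGTG on each strand. RefSeq windows were found for 32 of the 33 members, 46 windows in all since some genes have several starts. Of these, 37 windows (80.4%) held ACGTG or GCGTG, beside 43.8% of all 32851 windows and 60.7% of the windows of tested genes. Windows of the same gene can overlap and count a site more than once, as 2 of Aldoa and 2 of Eno1 do. No share per gene was taken. The share was 81.5% for members that rose after stimulation and 78.9% for the other members. The E-box CACGTG was found in 10.9% of the members' windows, 7.15% of all windows and 9.94% of those of tested genes. GC content had a median of 60.7% in the members' windows, 52.7% in all windows and 60% in those of tested genes. A match is a run of letters and not a bound site.

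Stimulation raised 13 of the 16 listed glycolytic enzymes and 1 of the 7 pentose phosphate genes. Of the 33 members, 19 rose and 1 fell, where 12.4% of all genes tested rose and 19.5% fell. The split over all genes, 1926 higher and 3033 lower, was 2411 and 2523 with median-of-ratios scaling and 2434 and 2240 with quantile normalization, and that of the members was 20 and 1 and 20 and 0. A change was called in limma when its Benjamini-Hochberg adjusted p, taken over all genes tested, was under 0.05 and its log2 fold change was 1 or more in size. Without the fold threshold 26 members were higher and 6 lower, beside 28.8% and 40% of all genes (68.7% in either direction). Of the 16 glycolytic enzymes 14 were then higher and 1 lower, and of the 7 pentose phosphate genes 5 were higher and 2 lower. The 3 stimulated libraries did not overlap the 3 medium libraries in 31 members, 26 of them higher and 5 lower, beside 29.9% and 42.6% of all genes (72.6% in either direction). The median log2 fold change of (TPM + 1) was 1.38 over the members and -0.15 over all genes. The 16 glycolytic enzymes summed to 1905 ± 123 TPM in medium (SD, n = 3), 0.19% of all transcripts, and to 13460 ± 634 TPM after stimulation, 1.35% of all transcripts. The ratio of these sums was 7.06 ± 0.57 (SD propagated from both groups). The 7 pentose phosphate genes summed to 638 ± 4.9 TPM in medium and 922 ± 2.7 TPM after stimulation, a ratio of 1.45 ± 0.012.

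With TRAIL, 13 of the 16 glycolytic enzymes and 2 of the 7 pentose phosphate genes were lower than after stimulation alone. Against stimulated cells, 19 members were lower and 1 higher, where 14.3% of all genes tested were lower and 16.6% higher. The median log2 fold change was -1.36 over the members and 0.01 over all genes. Without the fold threshold 5 members were higher and 26 lower, beside 33.5% and 33.5% of all genes (67.1% in either direction). Of the 16 glycolytic enzymes 1 was then higher and 14 lower, and of the 7 pentose phosphate genes 1 was higher and 5 lower. The groups did not overlap in 31 members, 5 of them higher and 26 lower with TRAIL, beside 35.5% and 34.9% of all genes (70.4% in either direction). The glycolytic enzymes summed to 1757 ± 125 TPM in TRAIL-treated activated T cells, and the stimulated sum was 7.66 ± 0.65 times as high. With the TPM of near-identical copies added, an alternative described with Gapdh, the glycolytic sums were 2947 ± 173, 20620 ± 472 and 2898 ± 142 TPM in medium, stimulated and TRAIL libraries, and the stimulated sum was 6.997 times that of medium and 7.12 times that with TRAIL. The pentose phosphate genes summed to 538 ± 21 TPM, and the stimulated sum was 1.72 ± 0.066 times as high. Against medium, 3 members were higher with TRAIL and 0 were lower, where 2.49% of all genes were higher and 2.13% lower. The split over all genes, 387 higher and 331 lower, was 513 and 190 with median-of-ratios scaling and 526 and 219 with quantile normalization, and that of the members was 3 and 0 in both. At an adjusted p under 0.05 with no fold threshold, 4 members were higher and 4 lower in that comparison, beside 8.03% and 24.6% of all genes (32.6% in either direction), and 13 had an unadjusted p under 0.05. The TRAIL and medium libraries did not overlap in 20 members, 6 of them higher and 14 lower, beside 12.4% and 38.2% of all genes (50.6% in either direction). The median log2 fold change was -0.14 over the members and -0.18 over all genes. Median-of-ratios scaling of the TPM columns moved the median of all genes to 0.02 after stimulation and -0.03 for TRAIL against medium, so a small difference from medium of either sign is relative to that shift. The 3 comparisons share their libraries in pairs, so the values of a member in one are not independent of those in the others.

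**Figure D1:**
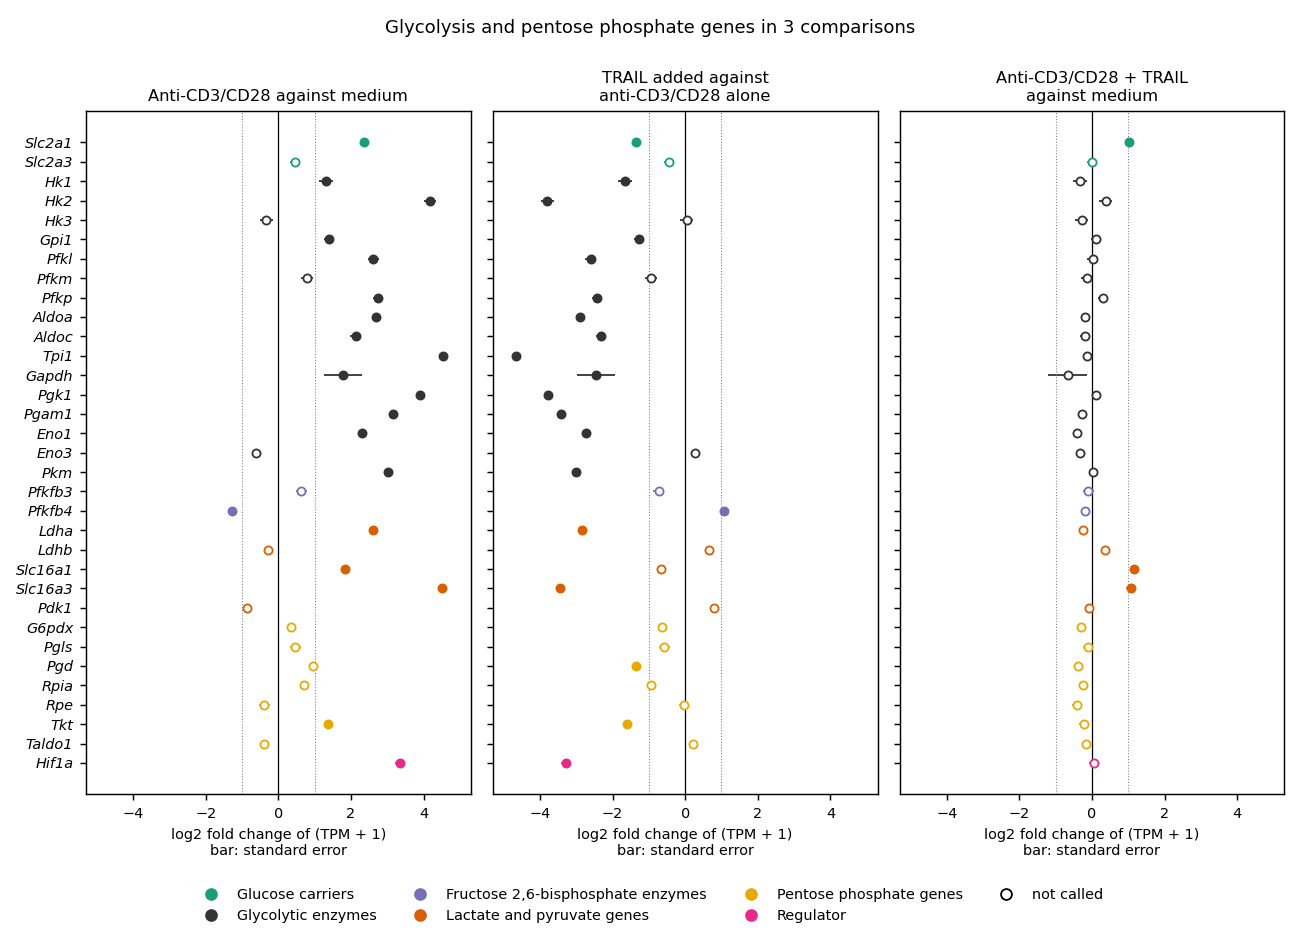
Log2 fold change of (TPM + 1) for each of the 33 members (rows, colored by role) in 3 comparisons, with 3 libraries a group; points are limma estimates, bars their standard errors, filled points passed the test and dotted lines mark a log2 fold change of 1 in either direction. Most filled points lie right of the line after stimulation and left of it when TRAIL was added, and the comparison of TRAIL with medium has 3 filled points, Slc2a1, Slc16a1 and Slc16a3.

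Glucose enters T cells through carriers of the SLC2 family. Slc2a1 (ENSMUSG00000028645, chr4:119108711-119137983 on GRCm38) encodes GLUT1, the main glucose carrier of activated T cells. It had 21.6, 28.1 and 24.9 TPM in medium, 122, 138 and 137 TPM after stimulation and 48.1, 53.3 and 51.5 TPM with TRAIL. The 3 groups did not overlap, and the TRAIL libraries lay between the medium and the stimulated ones. Slc2a1 rose by a log2 fold change of 2.37 ± 0.11 (SE) after stimulation (limma adjusted p = 3.17e-08). It was lower with TRAIL than after stimulation alone by a log2 fold change of -1.36 (adjusted p = 2.08e-06), and higher with TRAIL than in medium by 1.01 (adjusted p = 0.000165). The last value lies at the fold threshold and fell below it without medium replicate 1 (0.92) or without TRAIL replicate 2 (0.98). Slc2a3, the gene of the high-affinity carrier GLUT3, averaged 29.9 ± 3.5, 41.1 ± 4.6 and 29.7 ± 3.7 TPM in medium, stimulated and TRAIL libraries (SD, n = 3) and passed no test at the fold threshold. Slc2a1 made up 45.4 ± 4.7% of the TPM of these 2 carriers in medium, 76.3 ± 0.8% after stimulation and 63.2 ± 3.7% with TRAIL.

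The hexokinases trap glucose in the cell as glucose 6-phosphate. Hk2 (ENSMUSG00000000628, chr6:82725025-82774454), the inducible isozyme, had 5.27, 6.05 and 5.47 TPM in medium, 84.4, 139 and 139.8 TPM after stimulation and 7.42, 8.001 and 7.38 TPM with TRAIL. It was low in every medium and TRAIL library and high in each stimulated one, with log2 fold changes of 4.18 ± 0.18 after stimulation (limma adjusted p = 1.72e-08) and -3.79 for TRAIL against stimulated cells (adjusted p = 3.97e-08). Hk1, the constitutive isozyme, had 55.5, 76.3 and 58.5 TPM in medium, 117, 185 and 185 TPM after stimulation and 54.7, 51.8 and 42.5 TPM with TRAIL. It rose by a log2 fold change of 1.32 ± 0.19 after stimulation and changed by -1.66 ± 0.19 for TRAIL against stimulated cells. Hk3, which is known from myeloid cells, stayed between 6.53 and 12.04 TPM in the 9 libraries with groups that overlapped, and passed no test. The summed macrophage and neutrophil markers given above were low in the stimulated libraries, where Hk3 was at 6.53 to 10.5 TPM. Hk2 accounted for 7.03 ± 0.54% of hexokinase TPM in medium, 41.4 ± 0.69% after stimulation and 11.5 ± 1.1% with TRAIL, while the share of Hk3 was 14.1, 3.04 and 13.7% in turn.

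Gpi1 converts glucose 6-phosphate to fructose 6-phosphate and was among the abundant members in medium. It had 196, 256 and 212 TPM in medium, 495, 629 and 613 TPM after stimulation and 256, 243 and 218 TPM with TRAIL. The log2 fold changes were 1.38 ± 0.13 after stimulation and -1.27 ± 0.13 for TRAIL against stimulated cells.

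Phosphofructokinase catalyses the committed step of glycolysis and has 3 subunit genes. Pfkp, the platelet-type subunit, had 57.5, 64.7 and 60.6 TPM in medium, 339, 458 and 455 TPM after stimulation and 83.3, 73.8 and 70.1 TPM with TRAIL. Pfkl, the liver-type subunit, had 25.9, 34.5 and 28.9 TPM in medium, 160.2, 205 and 199 TPM after stimulation and 36, 27.5 and 27.1 TPM with TRAIL. In both genes each stimulated library was above every medium and TRAIL library. Their log2 fold changes after stimulation were 2.74 ± 0.13 for Pfkp and 2.62 ± 0.15 for Pfkl. Pfkm, the muscle-type subunit, averaged 9.38 ± 1.6, 17.1 ± 3.0 and 8.45 ± 1.3 TPM in the 3 groups, and its log2 fold change of 0.80 after stimulation (adjusted p = 0.00185) was under the fold threshold. Pfkm made up 9.34 ± 0.82% of phosphofructokinase TPM in medium, 2.74 ± 0.10% after stimulation and 7.39 ± 0.91% with TRAIL.

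The allosteric activator of phosphofructokinase, fructose 2,6-bisphosphate, is made and removed by the PFKFB enzymes. Pfkfb4 (ENSMUSG00000025648, chr9:108991778-109032228) was the 1 member that fell after stimulation at the fold threshold. It had 14.3, 13.2 and 12.2 TPM in medium, 4.23, 5.42 and 5.16 TPM after stimulation and 11.6, 10.8 and 12.3 TPM with TRAIL. All 3 stimulated libraries lay below the 6 others. Pfkfb4 fell by 1.26 on the log2 scale after stimulation (log2 fold change -1.26 ± 0.12, limma adjusted p = 6.24e-06) and was higher by 1.08 with TRAIL (adjusted p = 2.03e-05). The second value fell below the fold threshold without stimulated replicate 1 (0.99), and both were under it with quantile normalization (-0.96 and 0.97). Pfkfb3 had 31.6 to 38.6 TPM in medium, 44.0 to 61.9 TPM after stimulation and 27.7 to 36.4 TPM with TRAIL, and its log2 fold changes of 0.63 and -0.73 were under the threshold. Pfkfb4 made up 27.5 ± 3.1% of the TPM of both genes in medium, 8.26 ± 0.45% after stimulation and 26.3 ± 3.9% with TRAIL.

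Aldolase splits fructose 1,6-bisphosphate into triose phosphates, which triosephosphate isomerase interconverts. Aldoa, the form found in most tissues, had 294, 352 and 312 TPM in medium, 2061, 2110 and 2053 TPM after stimulation and 294, 289.6 and 256 TPM with TRAIL. Aldoc, a form known from brain, had 1.88, 2.76 and 2.25 TPM in medium, 12.4, 13.4 and 14.2 TPM after stimulation and 2.27, 1.49 and 1.90 TPM with TRAIL, and Aldoa made up 99.3, 99.4 and 99.3% of aldolase TPM in the 3 groups. Both were higher after stimulation than in medium or with TRAIL, with stimulated libraries that overlapped neither other group. The split between Aldoa and Aldoc moved by less than 0.1 percentage points. Tpi1 (ENSMUSG00000023456, chr6:124810586-124814296), the single triosephosphate isomerase gene on the list, had 67.5, 61.6 and 65.7 TPM in medium, 1591, 1462 and 1504 TPM after stimulation and 59.04, 61.4 and 56.9 TPM with TRAIL. The stimulated libraries were far above the others, and the medium and TRAIL libraries lay side by side. Tpi1 had a log2 rise close to that of Slc16a3, the next largest, with log2 fold changes of 4.53 ± 0.08 after stimulation (limma adjusted p = 1.85e-10) and -4.66 ± 0.08 for TRAIL against stimulated cells (adjusted p = 1.11e-10). By the ratio of mean TPM, without the pseudocount, the order was the other way, at 23.4 for Tpi1 and 28.3 for Slc16a3.

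Glyceraldehyde-3-phosphate dehydrogenase makes the first NADH of the pathway and is often used as a reference gene. Gapdh (ENSMUSG00000057666, chr6:125161715-125166467) had 50.1, 51.5 and 47.5 TPM in medium, 96.99, 546 and 98 TPM after stimulation and 32.8, 31.04 and 28.7 TPM with TRAIL. Stimulated replicate 2 was more than 5 times as high as the other stimulated libraries, and the Gapdh row rose by a log2 fold change of 1.78 ± 0.53 (adjusted p = 0.0124). Without that library the log2 fold change was 0.96, under the fold threshold, and that of TRAIL against stimulated cells was -1.63 in place of -2.46. The GENCODE annotation of GRCm38 holds 73 other genes with at least 95% identity to the Gapdh transcript over at least 500 bases, and 50 of them reached 1 TPM in a library. Gapdh with these copies summed to 999.7 ± 56 TPM in medium, 6828 ± 101 TPM after stimulation and 1078 ± 28 TPM with TRAIL. The Gapdh row held 4.7 to 5.3% of that sum in medium, 1.41 to 8.04% after stimulation and 2.7 to 3.0% with TRAIL. The summed value moved by a log2 fold change of 2.77 ± 0.09 after stimulation and -2.66 ± 0.09 for TRAIL against stimulated cells, and the 3 stimulated libraries then lay between 6760 and 6944 TPM. How reads that match several genes were assigned is not given in the sources used here, so the level of Gapdh alone cannot be read from its row.

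**Figure D2:**
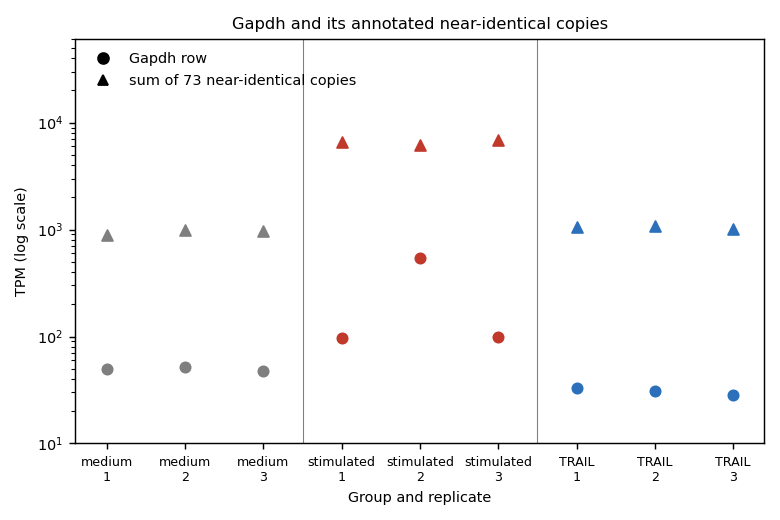
TPM on a log axis of the Gapdh row (circles) and of the sum of its 73 annotated near-identical copies (triangles) in each of the 9 libraries. The copies sum to 6236 to 6846 TPM in the stimulated libraries while the Gapdh row is at 97 to 98 TPM in replicates 1 and 3 and 546 TPM in replicate 2.

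Phosphoglycerate kinase and phosphoglycerate mutase form 3-phosphoglycerate, with a first yield of ATP, and move its phosphate. Pgk1 (ENSMUSG00000062070) had 137, 127 and 129 TPM in medium, 2112, 1922 and 1838 TPM after stimulation and 141, 146 and 135 TPM with TRAIL. Pgam1 had 45.8, 58.9 and 50.4 TPM in medium, 462, 479 and 464 TPM after stimulation and 44.6, 45.03 and 38.6 TPM with TRAIL. Stimulated libraries of both were above all others. Pgk1 rose by a log2 fold change of 3.89 ± 0.09 (adjusted p = 3.01e-10) and was lower with TRAIL by a log2 fold change of -3.79 ± 0.09 (adjusted p = 5.67e-10). Pgam1 changed by 3.16 ± 0.11 and -3.43 ± 0.11 on the log2 scale. Pgk1 shares its sequence with 2 annotated copies and Pgam1 with 1, and the rows held 96.0 to 96.3% and 83.1 to 83.6% of the summed TPM after stimulation.

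Enolase and pyruvate kinase complete the path to pyruvate. Eno1, the widely expressed enolase, had 402, 415 and 427 TPM in medium, 2059, 2079 and 2041 TPM after stimulation and 328, 323 and 287 TPM with TRAIL. It rose by a log2 fold change of 2.31 ± 0.09 and was lower by -2.72 ± 0.09 with TRAIL. Against medium the TRAIL libraries of Eno1 lay lower without overlap, with a log2 fold change of -0.41 ± 0.09 (adjusted p = 0.00583) that was under the fold threshold, where the median of all genes was -0.18. Eno3, the muscle enolase, averaged 28.2 ± 2.0, 18.1 ± 1.7 and 22.1 ± 0.37 TPM in medium, stimulated and TRAIL libraries, and its log2 fold change of -0.61 after stimulation (adjusted p = 0.000363) was under the fold threshold. Its share of enolase TPM was 6.36 ± 0.31, 0.872 ± 0.084 and 6.63 ± 0.44%. Pkm, the pyruvate kinase gene of most tissues, had 416, 484 and 424 TPM in medium, 3198, 3822 and 3799 TPM after stimulation and 473, 460.2 and 409 TPM with TRAIL. It changed by log2 fold changes of 3.03 ± 0.11 and -3.01 ± 0.11, and the level of its splice forms is not given by a table of genes.

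**Figure D3:**
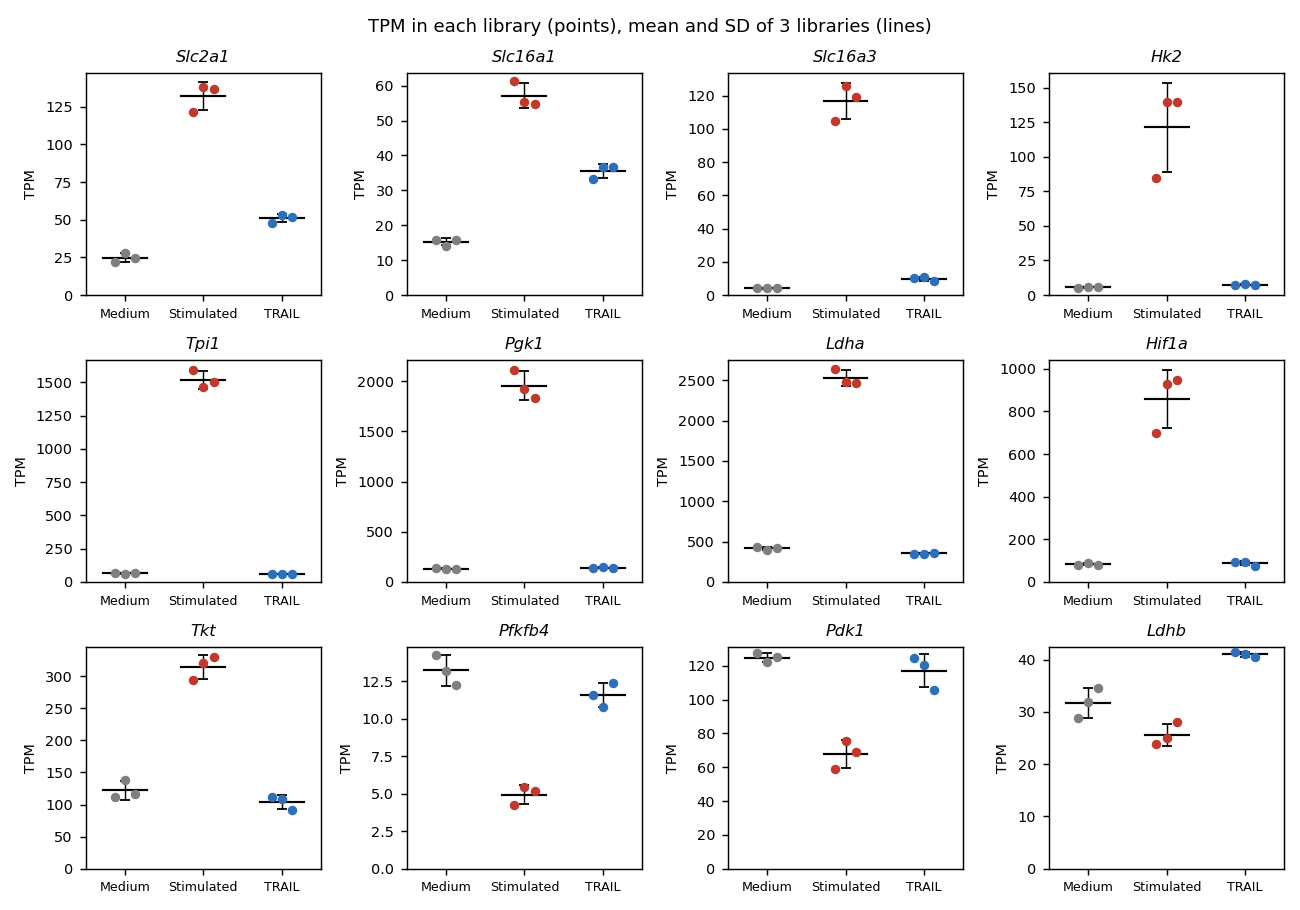
TPM of 12 members in each library (points) by group, with the mean (long line) and SD (bar) of 3 libraries; each vertical axis starts at 0. With TRAIL, Slc2a1, Slc16a1 and Slc16a3 stand above medium, while Hk2, Tpi1, Pgk1, Ldha, Hif1a and Tkt lie near the medium level. Pfkfb4, Pdk1 and Ldhb are lowest after stimulation.

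Pyruvate is reduced to lactate by lactate dehydrogenase. Ldha (ENSMUSG00000063229), the subunit that predominates in glycolytic cells, had 429, 393 and 422 TPM in medium, 2637, 2477 and 2473 TPM after stimulation and 347, 351 and 359.5 TPM with TRAIL. Each stimulated library was above every other library, and the log2 fold changes were 2.60 ± 0.08 (adjusted p = 2.38e-09) and -2.84 ± 0.08 (adjusted p = 1.82e-09). Ldhb, the subunit that predominates in oxidative tissues, was in turn at 28.8 to 34.6, 23.9 to 27.99 and 40.4 to 41.5 TPM in medium, stimulated and TRAIL libraries. These groups did not overlap, and the TRAIL libraries were the highest. The log2 fold changes of Ldhb were -0.30 after stimulation (adjusted p = 0.0235), 0.66 for TRAIL against stimulated cells (adjusted p = 0.000214) and 0.36 for TRAIL against medium (adjusted p = 0.022), all under the fold threshold. Ldhb made up 7.12 ± 0.72% of lactate dehydrogenase TPM in medium, 1.01 ± 0.11% after stimulation and 10.4 ± 0.29% with TRAIL.

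Lactate leaves the cell with a proton through the monocarboxylate carriers MCT1 and MCT4, which also carry pyruvate. Slc16a3 (ENSMUSG00000025161, chr11:120948480-120960868), the gene of MCT4, had 3.96, 4.43 and 3.96 TPM in medium, 105, 126 and 119 TPM after stimulation and 10.1, 10.7 and 8.45 TPM with TRAIL. The stimulated libraries were far above the others, and the TRAIL libraries, though low, were all above medium. The log2 fold changes were 4.52 ± 0.12 after stimulation (limma adjusted p = 8.45e-10), -3.45 ± 0.12 for TRAIL against stimulated cells (adjusted p = 5.21e-09) and 1.07 ± 0.12 for TRAIL against medium (adjusted p = 0.000182). Slc16a1 (ENSMUSG00000032902, chr3:104638668-104658462), the gene of MCT1, had 15.8, 14.2 and 15.9 TPM in medium, 61.2, 55.3 and 54.7 TPM after stimulation and 33.1, 36.6 and 36.8 TPM with TRAIL. The TRAIL libraries lay between both other groups and closer on the log scale to the stimulated ones. Slc16a1 rose by a log2 fold change of 1.83 ± 0.10 after stimulation (adjusted p = 7.54e-08), stood 1.16 ± 0.10 above medium with TRAIL (adjusted p = 2.68e-05) and differed by -0.67 ± 0.10 between TRAIL and stimulated cells (adjusted p = 0.000135), which was under the fold threshold. Slc16a3 made up 21.3 ± 2.2% of the TPM of both carriers in medium, 67.0 ± 3.4% after stimulation and 21.6 ± 2.5% with TRAIL, at summed levels of 19.4 ± 0.70, 174 ± 7.7 and 45.2 ± 2.0 TPM.

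The 3 members called higher with TRAIL than in medium were Slc2a1, Slc16a1 and Slc16a3, genes of carriers in the plasma membrane. The other carrier gene among the members, Slc2a3, had a log2 fold change of -0.0076 (adjusted p = 0.975), and 0 of the 16 glycolytic enzymes were called by limma in that comparison, where 4 of them had an unadjusted p under 0.05 and 4.62% of all genes tested were called in either direction. With a pseudocount of 5 in place of 1, which shrinks the folds of genes at these levels, the log2 fold changes of Slc2a1, Slc16a1 and Slc16a3 were 0.91, 0.996 and 0.69, all under the threshold. Whether these genes differed from the other members in this comparison was not tested.

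Pdk1, a kinase that keeps pyruvate out of the mitochondrial citric acid cycle by inhibiting pyruvate dehydrogenase, went the other way from Ldha. It was at 122 to 128 TPM in medium, 59.1 to 75.3 TPM after stimulation and 106 to 125 TPM with TRAIL. The stimulated libraries were all below the 6 others. The log2 fold changes were -0.88 ± 0.11 after stimulation (adjusted p = 4.21e-05) and 0.78 ± 0.11 for TRAIL against stimulated cells (adjusted p = 9.8e-05), both under the fold threshold.

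**Figure D4:**
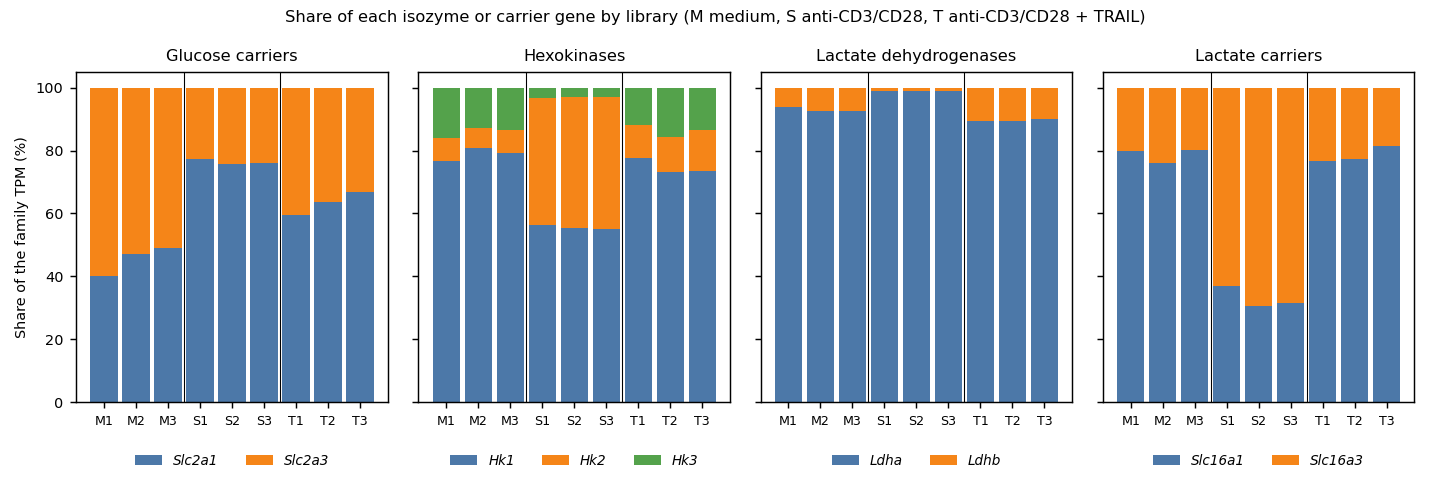
Share in percent of the summed TPM of a gene family held by each member in each of the 9 libraries (M medium, S anti-CD3 and anti-CD28, T the same with TRAIL). In the stimulated libraries the shares of Slc2a1, Hk2, Ldha and Slc16a3 are higher than in every medium library, and with TRAIL the share of Slc16a3 lies near that of medium while that of Hk2 lies above it, at 11.5% beside 7.03% on average.

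The oxidative branch of the pentose phosphate pathway makes NADPH through glucose-6-phosphate dehydrogenase, 6-phosphogluconolactonase and 6-phosphogluconate dehydrogenase. Pgd, the last of these, had 85.2, 104 and 88.6 TPM in medium, 162, 189 and 194 TPM after stimulation and 76.7, 71.4 and 64.9 TPM with TRAIL. Stimulated libraries were above all others, with a log2 fold change of 0.96 ± 0.11 after stimulation (adjusted p = 3.12e-05), just under the fold threshold, and of -1.34 ± 0.11 for TRAIL against stimulated cells (adjusted p = 2.77e-06). Without medium replicate 2 or without stimulated replicate 1 the first value was 1.05 or 1.04, past the threshold, and with median-of-ratios scaling it was 1.15. G6pdx, the entry enzyme of the branch, was at 43.6 to 49.5, 54.3 to 64.3 and 36.1 to 39.0 TPM in medium, stimulated and TRAIL libraries, with log2 fold changes of 0.33 and -0.63 in the first 2 comparisons. Pgls was at 65.9 to 82.2, 89.3 to 130 and 64.0 to 72.8 TPM. Neither passed the fold threshold.

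The non-oxidative branch exchanges sugars between ribose 5-phosphate and glycolytic intermediates. Tkt (transketolase, ENSMUSG00000021957) had 111, 139 and 116 TPM in medium, 294, 320.5 and 330.1 TPM after stimulation and 111, 109 and 91.4 TPM with TRAIL. Of the 7 pentose phosphate genes it alone rose at the fold threshold as reported, by a log2 fold change of 1.36 ± 0.11 (adjusted p = 2.51e-06), and was lower with TRAIL by -1.60 ± 0.11 (adjusted p = 8.23e-07). Taldo1, transaldolase, was at 195 to 220 TPM in medium, 146 to 168 TPM after stimulation and 175 to 191 TPM with TRAIL, the most abundant of the 7 in medium and lowest after stimulation. Its log2 fold change of -0.40 after stimulation (adjusted p = 0.00257) was under the fold threshold. Rpia, the isomerase that forms ribose 5-phosphate, was at 38.4 to 39.5, 62.5 to 67.1 and 30.9 to 35.6 TPM, with log2 fold changes of 0.70 and -0.94. Rpe, the epimerase of the branch, was at 42.0 to 65.7 TPM in medium, 39.9 to 44.3 TPM after stimulation and 40.7 to 40.9 TPM with TRAIL. Its stimulated libraries overlapped both other groups, the TRAIL libraries lay below medium, and it was not called in any comparison.

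Hif1a (ENSMUSG00000021109, chr12:73901375-73947530) encodes the oxygen-regulated subunit of HIF-1, a protein known to be set largely by its stability. Its transcript had 81.5, 86.9 and 79.8 TPM in medium, 700.2, 929 and 945 TPM after stimulation and 91.04, 92.7 and 75.6 TPM with TRAIL. The stimulated libraries were far above the others and the medium and TRAIL libraries overlapped. Hif1a rose by a log2 fold change of 3.35 ± 0.13 (limma adjusted p = 9.19e-09) and was lower with TRAIL by a log2 fold change of -3.29 ± 0.13 (adjusted p = 1.27e-08). Of 20 other genes of the HIF pathway, which include its partners and regulators as well as genes known to respond to it, 7 rose after stimulation and 0 fell (limma, 6 lower at an unadjusted p under 0.05), and 7 were lower and 1 higher with TRAIL than after stimulation alone. Over all genes tested 12.4% rose and 19.5% fell after stimulation, and 14.3% were lower and 16.6% higher with TRAIL. Egln3, an oxygen sensor, averaged 2.06 ± 0.41, 210 ± 11 and 5.21 ± 0.66 TPM in medium, stimulated and TRAIL libraries. Bnip3, a mitophagy receptor, averaged 8.15 ± 0.99, 105 ± 13 and 5.47 ± 0.98 TPM. Vegfa, an angiogenic factor, averaged 1.29 ± 0.55, 92.6 ± 9.2 and 15.9 ± 2.2 TPM.

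The log2 fold changes of these genes for TRAIL against stimulated cells were -5.09 for Egln3, -4.04 for Bnip3 and -2.47 for Vegfa. Higd1a, Egln1, Ndrg1 and Ddit4 were lower as well, by log2 fold changes of -1.97, -1.82, -1.65 and -1.32, and Adm was higher by 1.14. P4ha1, a collagen prolyl hydroxylase subunit, rose after stimulation by 1.09 and was lower with TRAIL by -0.77, under the fold threshold. Against medium, Vegfa and Egln3 were higher with TRAIL by 2.90 and 1.02, and Ddit4, an inhibitor of mTORC1 signalling, was lower by -1.37. The median log2 fold change of the 20 genes was 0.43 after stimulation and -0.31 for TRAIL against stimulated cells, beside -0.15 and 0.01 over all genes.

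Of 14 regulators of glucose metabolism and T cell activation, 13 were tested. After stimulation 2 of them rose and 1 fell, where 12.4% of all genes tested rose and 19.5% fell. With TRAIL, 1 was higher and 2 lower than after stimulation alone, where 16.6% of all genes were higher and 14.3% lower. Myc, a transcription factor known to drive glycolytic genes in activated T cells, averaged 142 ± 15, 654 ± 60 and 196 ± 23 TPM in medium, stimulated and TRAIL libraries. Irf4, a factor that follows the strength of T cell receptor signalling, averaged 57.3 ± 3.7, 734 ± 136 and 183 ± 15 TPM. Both rose after stimulation, by log2 fold changes of 2.20 and 3.64, and were lower with TRAIL by -1.73 and -1.98. Irf4 was the 1 gene of this list called higher at the fold threshold with TRAIL than in medium, with a log2 fold change of 1.66 (adjusted p = 2.74e-05), where 2.49% of all genes tested were. Myc had a log2 fold change of 0.47 there (adjusted p = 0.0151), under the fold threshold. Txnip, an inhibitor of glucose uptake, averaged 905 ± 23, 158 ± 21 and 607 ± 62 TPM, with log2 fold changes of -2.52 and 1.94.

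Other genes of the pathway were read from the same fit. Of 34 other genes of glycolysis, gluconeogenesis and sugar entry, 22 were tested, 4 rose and 4 fell after stimulation, where 12.4% of all genes tested rose and 19.5% fell, and 3 were higher and 4 lower with TRAIL than after stimulation alone, where 16.6% of all genes were higher and 14.3% lower. The median log2 fold changes of these 22 genes were 0.12 and -0.30. Eno1b, a copy with 99.5% identity to Eno1, Slc2a6, a hexose carrier gene, Pgm1, a phosphoglucomutase gene, and the enolase gene Eno2 rose after stimulation by 2.51, 1.42, 1.94 and 1.14 on the log2 scale. With TRAIL, Eno1b, Slc2a6, Pgm1 and the phosphatase gene Pgp were lower than after stimulation alone by log2 fold changes of -2.55, -2.05, -1.99 and -1.39. Slc16a7, the gene of a further monocarboxylate carrier, Gpd1, a glycerol 3-phosphate dehydrogenase gene, Pklr, the pyruvate kinase gene of liver and red cells, and Galm, an aldose mutarotase gene, had log2 fold changes of -2.68, -2.26, -1.58 and -1.40 after stimulation. Slc16a7, Gpd1 and Galm were higher with TRAIL than after stimulation alone by 2.04, 2.45 and 1.11. Between TRAIL and medium 0 of the 22 were called by limma, where 4.62% of all genes were called, and 10 had an unadjusted p under 0.05.

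Of 10 other pentose phosphate genes 7 were tested, and 1 rose and 1 fell after stimulation, where 12.4% of all genes tested rose and 19.5% fell. With TRAIL, 0 were higher and 1 lower than after stimulation alone, where 16.6% of all genes were higher and 14.3% lower. Prps1, which makes the activated ribose used for nucleotides, rose by 1.32 on the log2 scale after stimulation and was lower with TRAIL by a log2 fold change of -1.19, and Shpk, a sedoheptulose kinase gene, had a log2 fold change of -1.13 after stimulation. Of 14 genes of pyruvate entry into mitochondria 13 were tested, and 1 rose and 1 fell after stimulation, where 12.4% of all genes tested rose and 19.5% fell. These were Pdk3, with a log2 fold change of 1.05, and Pdk2, with -1.13. With TRAIL, Pdk3 and the pyruvate dehydrogenase subunit gene Dlat were lower than after stimulation alone by log2 fold changes of -1.29 and -1.23, and Pdp1, a phosphatase that reactivates pyruvate dehydrogenase, was higher by 1.02. The kinases of pyruvate dehydrogenase on these lists therefore did not move in 1 direction after stimulation.

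The stimulated libraries were not alike for all members. Stimulated replicate 1 was the lowest of the 3 in 23 of the 33 members and the highest in 8. Its level relative to the mean of the other two was 0.605 for Hk2, 0.634 for Hk1 and 0.747 for Hif1a, but 1.41 for Pgls and 1.12 for Pgk1. Transcript length was taken as that of the longest annotated transcript of a gene, coding or not. Across the 33 members, the log2 difference of this library from the mean of replicates 2 and 3 had a Spearman correlation of -0.599 with that length. Across 15508 tested genes the correlation was -0.496. Genes are not independent replicates, the points share these libraries, and no p is given. Members in which this library was lowest had a median transcript length of 3289 bases and those in which it was highest one of 2256 bases. The part of this difference in the results was not tested beyond leaving the library out, and the count of members called after stimulation was 19 to 21 when each of the 9 libraries was left out in turn.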

How the data were processed

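SureSelect XT HS2 mRNA libraries of 9 splenic CD4+ T cell samples were sequenced by the authors on a NovaSeq sequencer. Reads were trimmed with Trimmomatic 0.36 and aligned with HISAT2 to GRCm38. The submitters' processing notes also name SAMtools 1.2, StringTie 2.1.2 and DESeq2 without a role, and name GRCh38 as the build, which is a human genome. The deposited values are TPM per gene, which sum to 1000000 in each library, so sequencing depth is unknown and no counting interval can be given. How reads with several matches were assigned is not given in the sources used here.

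Groups were taken from the sample labels. Values were tested as log2(TPM + 1) with limma 3.58.1 (R 4.3.3, trended variance) in a single fit of the 9 libraries with no replicate block, over the 15536 genes that reached 1 TPM in 3 libraries or more. Genes were called when the adjusted p (Benjamini-Hochberg) was under 0.05 and the log2 fold change was 1 or more in size. The pseudocount understates the change of low genes. An exact permutation test of 3 against 3 libraries cannot go below a two-sided p of 0.1. On simulated data, the fit recovered 98 to 99.5% of 200 genes changed by 2 on the log2 scale in the comparison of stimulated with medium cells, among 15536 genes. The changed genes were drawn from the more abundant ones, and noise was independent between libraries. Recovery where more genes change, as in the data (31.9% called), or where a library is shifted was not tested.

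The members, the role groups, the other gene lists (other glycolysis genes, other pentose phosphate genes, pyruvate entry, HIF pathway genes, regulators and cell type markers) and the tests were chosen with earlier results of these data known. Every member was named, with the value in each library for members called in any comparison, and up to 10 called genes of each other list. Near-identical copies were found with BLAST 2.17.0 against GENCODE M21 transcripts, at 95% identity over 500 bases, and adding their TPM to 8 members and to the glycolytic sum was an alternative chosen after seeing the data. Promoters came from a RefSeq table of GRCm38.p6. Other settings tried were 2 pseudocounts, 2 filters, 2 scalings, a fit with no variance trend, fits of only the compared groups, a replicate block, no fold threshold, added copies, and leaving out each library.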

Additional observations from a re-analysis of the deposited data

How the results depend on the processing

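Across the 33 members and the other settings tried, 617 of 636 values kept their direction and side of the threshold after stimulation, 613 of 636 for TRAIL against stimulated cells and 601 of 636 for TRAIL against medium. The filters, the variance trend, the replicate block and the fold threshold did not alter a fold change. Neither did fits of only the compared groups, nor leaving out a library of the group not compared. Direction could therefore not change in these settings, which are part of the counts. No value reversed after stimulation. With no fold threshold, 32, 31 and 8 members and 10678, 10420 and 5063 genes were called in the 3 comparisons, in that order. With a pseudocount of 5, 2946, 2883 and 332 genes were called and 0 members for TRAIL against medium, and with 0.1 the last comparison called 1167 genes. Leaving out each library in turn gave 19 to 21, 20 to 22 and 2 to 3 members, and 4749 to 5202, 4649 to 4950 and 650 to 815 genes. The glycolytic sums had ratios of 6.88 to 7.33 (stimulated to medium), 7.36 to 7.87 (stimulated to TRAIL) and 0.898 to 0.96 (TRAIL to medium) in those fits, and the pentose phosphate sums 1.44 to 1.45, 1.68 to 1.75 and 0.83 to 0.86.

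Median-of-ratios scaling gave ratios of 8.06 (stimulated to medium) and 1.04 (TRAIL to medium) for the glycolytic sum, where the last crossed 1, and 1.65 and 0.95 for the pentose phosphate sum, whose direction for TRAIL against medium stayed below 1. Without Taldo1, the most abundant pentose phosphate gene in medium, the ratios were 1.78 (stimulated to medium) and 2.16 (stimulated to TRAIL). For TRAIL against stimulated cells, Hk3 was -0.026 and Rpe 0.044 on the log2 scale with quantile normalization, opposite in sign to the reported values. For TRAIL against medium, median-of-ratios scaling and quantile normalization reversed the sign of Slc2a3 (0.16 and 0.18), Pfkm (0.018 and 0.069), Tpi1 (0.036 and 0.0115), Pfkfb3 (0.061 and 0.057), Pdk1 (0.075 and 0.0035) and Pgls (0.057 and 0.029), and quantile normalization that of Pkm (-0.054) and Pfkfb4 (0.007). Adding copies gave Gapdh 0.11. Leaving out a library also reversed small values, with ranges of -0.13 to 0.17 for Hk3 and -0.065 to 0.0072 for Rpe (TRAIL against stimulated) and of -0.11 to 0.0901 for Slc2a3, -0.11 to 0.12 for Pfkl, -0.021 to 0.087 for Pkm and -0.19 to 0.0064 for Pfkfb3 (TRAIL against medium). None of these reversed values passed the test before or after.

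Pfkm passed the fold threshold after stimulation with quantile normalization (1.04), and for TRAIL against stimulated cells with a pseudocount of 0.1, without stimulated replicate 1 or without TRAIL replicate 2 (-1.0045, -1.08 and -1.0004). Pgd passed after stimulation with median-of-ratios scaling (1.15), and Rpia for TRAIL against stimulated cells without TRAIL replicate 2 (-1.0018). Pfkfb4 lost its calls with a pseudocount of 5 (-0.88 and 0.74) and with quantile normalization (-0.96 and 0.97). Apart from the fold threshold and the pseudocount, whose construction sets what passes, the cause was not tested. The deviations of same-numbered libraries from their group means correlated at -0.306 to 0.295, and those of other-numbered libraries at -0.379 to 0.289. Deviations within a group of 3 libraries are tied to each other, so these values cannot decide whether a number marks a shared animal or day. With a replicate block 20, 20 and 3 members and 4960, 4802 and 714 genes were called.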
